A study of Mus musculus with 8 samples.

Results

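Inherited forms of amyotrophic lateral sclerosis (ALS), in which motor neurons die, trace to variants in many genes besides SOD1. The mouse counterparts of 9 such genes, Tardbp, Optn, Tbk1, Sqstm1, Vcp, Ubqln2, Nek1, Pfn1 and Kif5a, were taken by symbol from the deposited count table, where they are 9 of 55291 rows. The rule uses the gene symbol alone. All 9 passed the filter on low counts, as did 19470 genes of the table in all. The lumbar spinal cord of 8 male mice was sequenced. In 4 of them, SOD1G93A Ager fl/fl Cx3cr1Cre/+ mice (mice E1776, E5231, E5248 and E5568, here called Ager-deleted), both copies of Ager were floxed. The other 4, SOD1G93A Ager+/+ Cx3cr1Cre/+ mice (E5386, E5642, E6578 and E6732, the Cre controls), had wild-type Ager. Values of the 4 mice of a genotype are listed in the order of these numbers throughout. Ager encodes RAGE, the receptor for advanced glycation end products, and the question was what its removal from microglia changes in the diseased cord.

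All 8 mice carried the human SOD1G93A transgene on a C57BL/6 background and a tamoxifen-inducible Cre driven from the Cx3cr1 locus, which is active in microglia and in other cells that express Cx3cr1. All received 5 daily injections of 0.2 μg tamoxifen at 12 weeks, so both Cre and tamoxifen were shared by the controls. Every mouse is labelled as 120 days old, whereas the study's text describes end-stage tissue. No mouse without the SOD1G93A transgene was analysed here, so the values compare 2 Ager genotypes within the disease model and not disease with health. RNA came from the whole cord, in which microglia are a minority of the cells. A change confined to one cell type is therefore diluted, and fewer cells of a type cannot be told apart from less RNA per cell.

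These genes fall into a few connected routes of protein and RNA handling. TDP-43, the product of Tardbp, is an RNA-binding protein that leaves the nucleus and aggregates in motor neurons of most ALS patients. Neither the amount nor the location of any protein was measured here. Optineurin (Optn) and p62 (Sqstm1) are receptors that tether ubiquitinated cargo to the autophagosome, and the kinase TBK1 phosphorylates them. VCP is an ATPase that extracts ubiquitinated proteins from complexes and membranes, and ubiquilin 2 (Ubqln2) carries such proteins to the proteasome. NEK1 is a kinase of DNA repair and cilia, profilin 1 (Pfn1) supplies actin monomers to growing filaments, and KIF5A is the neuronal heavy chain of conventional kinesin, the motor of fast axonal transport.

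Each library held 31148047 to 40324897 counts on genes. Levels are given as CPM, the count scaled to a common library size with TMM factors, and 3 counts, the smallest amount taken as detectable, were 0.0744 to 0.0963 CPM. Ager itself, the targeted gene, had 35 to 99 counts per mouse. The Ager-deleted mice had 0.889, 1.51, 1.02 and 1.34 CPM, against 1.53, 2.22, 2.18 and 2.41 CPM in the controls. Every Ager-deleted mouse lay below every control, although the difference did not pass correction over all genes (adjusted p = 0.252 in edgeR's exact test and 0.705 in its quasi-likelihood test). Markers of neurons, motor neurons, microglia, astrocytes and oligodendrocytes were detected in all 8 libraries. The summed level of 8 neuronal markers ranged from 4188 to 5448 CPM in Ager-deleted mice and from 4588 to 5500.0 CPM in controls, and that of 8 microglial markers from 916 to 1380.0 CPM and from 1139 to 1272 CPM. Skeletal muscle markers summed to 1024 CPM in control E5386 and 1537 CPM in control E5642 but to between 14.7 and 32.3 CPM in the other 6 mice, liver markers reached 573 CPM in control E6732, and Schwann cell markers were lowest in control E5386 at 115 CPM. Fits were run without E5386 and E5642 together, without each single mouse, and with the muscle level as a covariate. The part these libraries have in any difference was not tested further.

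No difference between the genotypes passed the test for any of the 9 genes. In edgeR's exact test 0 of 9 had an adjusted p under 0.05, in a comparison where 14 of 19470 genes (0.0719%) did, 2 higher (0.0103%) and 12 lower (0.0616%) in Ager-deleted mice. The quasi-likelihood test and limma-voom also called 0 of 9, each against 1 gene in all (0.00514%). DESeq2 called 0 of 9 against 25 of 19432 genes (0.129%), and edgeR's exact test on common and tagwise dispersions 0 of 9 against 78 genes (0.401%). At an unadjusted p under 0.05 there were again 0 of 9 in the exact test, the quasi-likelihood test, limma-voom and DESeq2, where the exact test had 4.26% and the quasi-likelihood test 6.71% of all genes. The 4 Ager-deleted mice did not separate from the 4 controls for any of the 9, a separation that 755 genes (3.88%) showed, 1.97% higher and 1.91% lower in Ager-deleted mice. The log2 fold changes, given throughout as Ager deleted over Cre control, were above 0 for 4 genes and below 0 for 5, with a median of -0.0023 against 0.0069 over all tested genes.

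**Figure D1:**
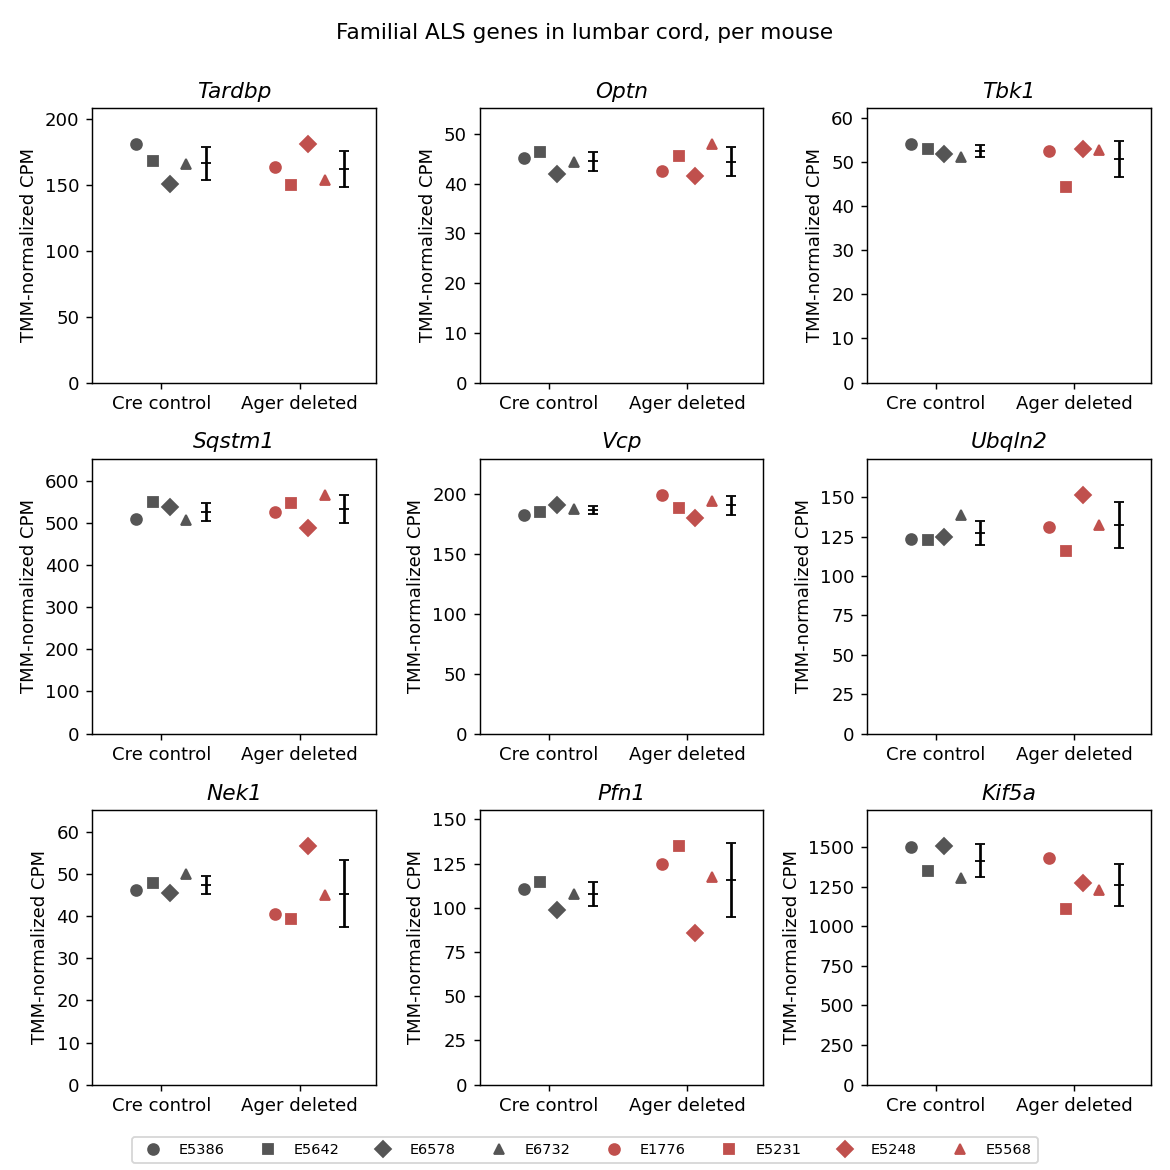
TMM-normalized CPM (linear axes from 0) of the 9 genes in each of 4 Cre controls (grey) and 4 Ager-deleted mice (red), 1 marker shape per mouse within a genotype, with mean and SD as black bars. The genotypes overlap in all 9 panels, and in the panels of Nek1 and Pfn1 the Ager-deleted mouse E5248 (red diamond) stands apart at 56.7 and 85.9 CPM.

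The intervals give the sizes of difference that the values of each gene allow, and they are not adjusted over all genes. A gene can therefore go uncalled though its interval excludes 0, as Ager did at -59.0% to -20.4%. In the quasi-likelihood fit, the 95% interval of the log2 fold change extended to either side by 0.12 for Vcp, the least, and by 0.27 for Pfn1, the most. In percent, the intervals reached furthest down for Kif5a, to -23.7% in Ager-deleted mice, and furthest up for Pfn1, to 29.0% higher. A difference inside its interval could not be told from 0 with 4 mice against 4.

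Tardbp (chr4:148612382-148627019, minus strand, GRCm38) is the RNA-binding member. The Ager-deleted mice had 164, 150.1, 181 and 154 CPM, and the controls had 181, 168, 151 and 166 CPM. The genotypes overlapped almost completely, and the means were 162 ± 13.8 and 167 ± 12.5 CPM (SD, n = 4). The log2 fold change was -0.039 with a standard error of 0.078 (edgeR adjusted p = 1 by the exact and 0.948 by the quasi-likelihood test). An exact two-sided permutation over the 70 assignments of the mice gave p = 0.543, where the smallest possible is 0.0286. Exons of Tardbp share 1817 bases with exons of Masp2 on the opposite strand, and Masp2 had 12 to 50 counts against at least 4634 for Tardbp. Whether the counting used strand is not known. Without strand, reads in shared bases could be left out of both genes, so the level of Tardbp may be understated. The same holds for the opposite-strand overlaps of Sqstm1, Vcp (352 exonic bases) and Optn (73). Nek1 shares 111 exonic bases with Gm45809 on the same strand, where reads could be left out even with strand.

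The kinase and the cargo receptors of selective autophagy were the steadiest group beside Vcp. Tbk1 (chr10:121546455-121586787, minus strand), which encodes the kinase that phosphorylates optineurin and p62, had 52.4, 44.5, 52.9 and 52.8 CPM after Ager deletion, against 54.1, 53.0, 51.8 and 51.2 CPM in the controls. Among these 8 mice 7 lay within 51.2 to 54.1 CPM, and only E5231 fell below. The log2 fold change was -0.051 (95% interval -0.20 to 0.10), with a quasi-likelihood adjusted p of 0.914.

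Optn (chr2:5020642-5064051, minus strand) had almost equal means, 44.4 ± 2.92 CPM in Ager-deleted mice and 44.5 ± 1.86 CPM in controls (SD, n = 4). Single Ager-deleted mice had 42.6, 45.5, 41.5 and 47.9 CPM, single controls 45.1, 46.4, 42.0 and 44.3 CPM. Its log2 fold change of -0.0023 (95% interval -0.15 to 0.14) was the closest to 0 of the 9, and in percent the interval ran from -9.64% to 10.3%.

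Sqstm1 (chr11:50199366-50210827, minus strand), the p62 gene, was the most abundant of the autophagy genes. It stood at 528, 548, 489.5 and 567 CPM after Ager deletion, compared with 509, 551, 539 and 507 CPM in controls. The highest and the lowest mouse were both Ager-deleted. The log2 fold change was 0.018 (95% interval -0.14 to 0.18), and the exact permutation p was 0.771. Mrnip overlaps 580 exonic bases of Sqstm1 on the opposite strand, with 114 to 171 counts against 16583 or more.

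Vcp and Ubqln2 act after ubiquitination. Vcp (chr4:42979963-43000507, minus strand) was the least variable member, with 199, 188, 179.9 and 194 CPM after Ager deletion and 182, 185, 191 and 188 CPM in the controls. The highest mouse exceeded the lowest by a factor of 1.11, and the log2 fold change was 0.030 (95% interval -0.091 to 0.15). A processed pseudogene, Vcp-rs, is 99.05% identical to Vcp over 2421 bases, so reads of the pair can be split between them. Vcp-rs took 177 to 264 counts against 5863 to 7830 for Vcp, and its own log2 fold change was 0.056 with a standard error of 0.15.

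Ubqln2 (chrX:153498227-153501570, plus strand), a gene of a single exon, varied more. The Ager-deleted mice had 131, 116, 151 and 132 CPM and the controls 123, 123, 125.0 and 139 CPM. Both the highest and the lowest value came from Ager-deleted mice, and the log2 fold change of 0.057 (95% interval -0.12 to 0.24) was smaller than that spread. The quasi-likelihood adjusted p was 0.926.

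Nek1 (chr8:60993195-61131346, plus strand) had the lowest level per length of the 9. Its values were 40.5, 39.4, 56.7 and 45.1 CPM after Ager deletion, against 46.2, 48.0, 45.5 and 50.1 CPM in controls. Mouse E5248 stood above all 7 others while the other 3 Ager-deleted mice stood below all 4 controls. The log2 fold change over all mice was -0.063 (95% interval -0.30 to 0.18, with an edgeR adjusted p of 1 by the exact and 0.936 by the quasi-likelihood test).

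Pfn1 (chr11:70651850-70654644, minus strand) showed the reverse arrangement. E5248 was the lowest of 8 at 85.9 CPM, while E1776, E5231 and E5568 had 125, 135 and 117 CPM, each above the 111, 115, 98.7 and 108 CPM of the controls. Group means were 116 ± 21.1 and 108 ± 6.72 CPM (SD, n = 4), and the log2 fold change was 0.10 (95% interval -0.17 to 0.37, edgeR quasi-likelihood adjusted p = 0.901). Without E5248 the log2 fold change was 0.22 for Pfn1 and -0.19 for Nek1, with adjusted p = 0.607 and 0.817 in edgeR's exact test. The unadjusted exact permutation p was then 0.0286 for each, the smallest that 3 mice against 4 allow, compared with 0.6 and 0.571 with all mice. For both genes the other 3 Ager-deleted mice lay beyond all 4 controls, so leaving out E5248 fixed that p in advance. It is therefore no support for a difference.

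Mice E5248 and E5231 were also at opposite ends for gene length and for microglial markers. The Pfn1 gene spans 2795 bases and the Nek1 gene 138152 bases. In E5248 the median deviation of a gene from its mean over the 8 mice, on the log2(CPM + 1) scale, was -0.054 over 2291 genes under 5 kb and 0.068 over 2308 genes over 100 kb, whereas in E5231 it was 0.063 and -0.054. The summed microglial markers were lowest in E5248 at 916 CPM and highest in E5231 at 1380.0 CPM. E5231 was also the mouse with the highest Pfn1 and the lowest Nek1. However, E5568 had the next lowest microglial sum at 1016 CPM, and its Pfn1 lay above every control. The summed astrocyte markers were lowest in E5248 as well, at 11428 CPM. What part gene length, microglial RNA or astrocyte RNA has in the Pfn1 and Nek1 values was not tested.

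Kif5a (chr10:127225696-127263348, minus strand) had the largest difference of the 9 and it was not beyond the spread between mice. The motor gene was measured at 1429.6, 1109, 1274 and 1227 CPM with Ager deleted and at 1500.2, 1351, 1508 and 1304 CPM without. Only E1776 among the Ager-deleted mice lay within the range of the controls, and 2 controls lay above every Ager-deleted mouse. On average Kif5a stood at 1260.0 ± 133 and 1416 ± 104 CPM (SD, n = 4), and the log2 fold change was -0.17 (95% interval -0.39 to 0.054). Its adjusted p was 1 by the exact test of edgeR, 0.802 by its quasi-likelihood test and 0.793 in DESeq2, and the exact permutation p was 0.114. The mouse with the lowest Kif5a, E5231, also had the lowest sum of neuronal markers at 4188 CPM, but E5386, with the next lowest sum at 4588 CPM, had 1500.2 CPM of Kif5a. The part of neuronal RNA content in the difference was not tested.

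**Figure D2:**
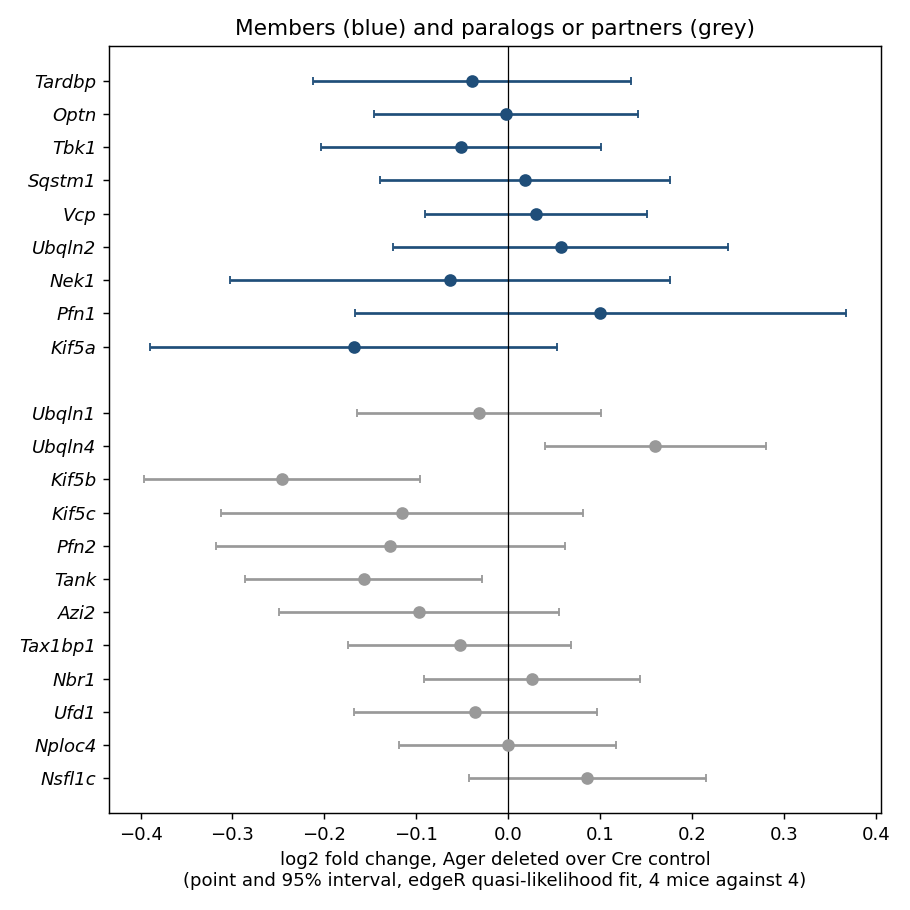
Log2 fold change (Ager deleted over Cre control) with its 95% interval from edgeR's quasi-likelihood fit for the 9 genes (blue) and paralogs or partners (grey), 4 mice against 4. All 9 blue intervals include 0, from -0.17 for Kif5a to 0.10 for Pfn1, while among the grey ones Kif5b, Tank and Ubqln4 exclude 0 before adjustment over all genes.

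Divided by the length of merged exons, the levels of the 9 genes covered a 32.5-fold range. Kif5a had 191 ± 19.8 CPM per kb (SD, n = 8 mice) and Sqstm1 158 ± 7.81 CPM per kb, both in the top percent of 19079 genes with a length. Pfn1 followed at 46.5 ± 6.27, Ubqln2 at 38.9 ± 3.32 and Vcp at 38.8 ± 1.28 CPM per kb. Tardbp had 21.1 ± 1.59, Tbk1 13.2 ± 0.769, Optn 11.8 ± 0.604 and Nek1 5.89 ± 0.694 CPM per kb, still above the median of 3.74 CPM per kb over all tested genes. Neighbours in this order whose mice overlapped were Kif5a and Sqstm1, Pfn1 and Ubqln2, Ubqln2 and Vcp, and Tbk1 and Optn. The steps from Sqstm1 to Pfn1 (3.39-fold), Vcp to Tardbp (1.84-fold), Optn to Nek1 (2.01-fold) and Tardbp to Tbk1 had no overlap between mice. Of the autophagy receptors, Sqstm1 was thus far above Optn per length of transcript.

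**Figure D3:**
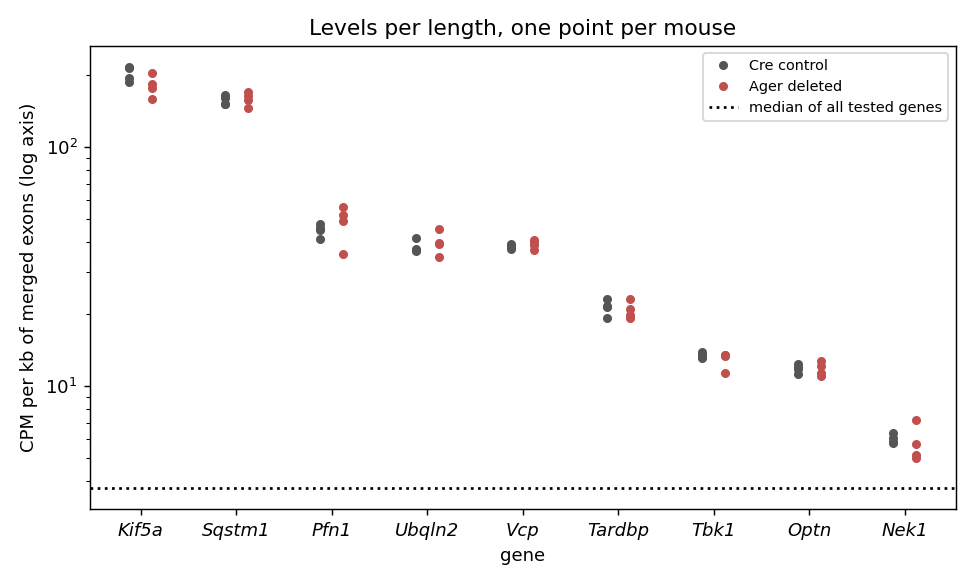
CPM per kb of merged exons on a log axis, 1 point per mouse, Cre controls in grey and Ager-deleted mice in red, genes ordered by mean and the median of all tested genes as a dotted line at 3.74. Kif5a and Sqstm1 lie at or above 146 in every mouse, and Nek1 reaches at most 7.19.

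The 9 genes were less variable than most tested genes, in a comparison not matched for level. The biological coefficient of variation, the spread between mice beyond counting error, had a median of 9.38% over the 9 genes and 13.3% over all tested genes. It was smallest for Vcp at 7.59% and largest for Pfn1 at 13.0%, with Nek1 at 12.1% and Kif5a at 11.1%. No control was the lowest of the 8 mice for any of the 9 genes. E5231 was lowest for 5 of them (Tardbp, Tbk1, Ubqln2, Nek1 and Kif5a) and E5248 for the other 4 (Optn, Sqstm1, Vcp and Pfn1). Ager-deleted mice were often highest too: E5248 and E5568 for 2 genes each, and E1776 and E5231 for 1 each. Among the controls, E5386 was highest for 2 genes and E6578 for 1. How often these mice are lowest or highest over all tested genes was not counted.

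Likeness across mice was read as a distance between profiles, which is small for any pair of genes that vary little. The root mean square distance between their centred log2(CPM + 1) profiles over 8 mice was 0.0552 for Optn and Sqstm1, 0.0560 for Sqstm1 and Vcp and 0.0771 for Optn and Vcp, whereas Nek1 and Pfn1, the farthest pair, were 0.329 apart. Optn, Sqstm1 and Vcp themselves deviated from their means by 0.067, 0.067 and 0.044 (root mean square), so distances of this size do not show that they moved together, and for Optn and Vcp the distance exceeded the deviation of either gene. Nek1 and Pfn1 deviated by 0.15 and 0.19. All points share library and depth. The tested genes nearest to Sqstm1 were Sf3a3, Ik and Psmc3 (0.0228 to 0.0264), and those nearest to Vcp were Golga2, Eif3c and Osbp (0.0208 to 0.0249). Tardbp lay closest to S1pr1, Srsf11 and Ints6l (0.0251 to 0.0302), Optn to 9330198N18Rik, Fam118b and Slc5a1 (0.0239 to 0.0285) and Tbk1 to Fads1, Agpat5 and Cdc37l1 (0.0364 to 0.0374). Zfp518b, Zfp418 and Usp51 were nearest to Ubqln2 (0.0366 to 0.0403), Pcsk2os1, Kantr and Gm37345 to Nek1 (0.0262 to 0.0390), and Bri3, Cryzl2 and Ino80b to Pfn1 (0.0379 to 0.0492). For Kif5a the nearest genes, Gm23257, Foxr2 and Gm26631, were farther off at 0.0536 to 0.0595.

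**Figure D4:**
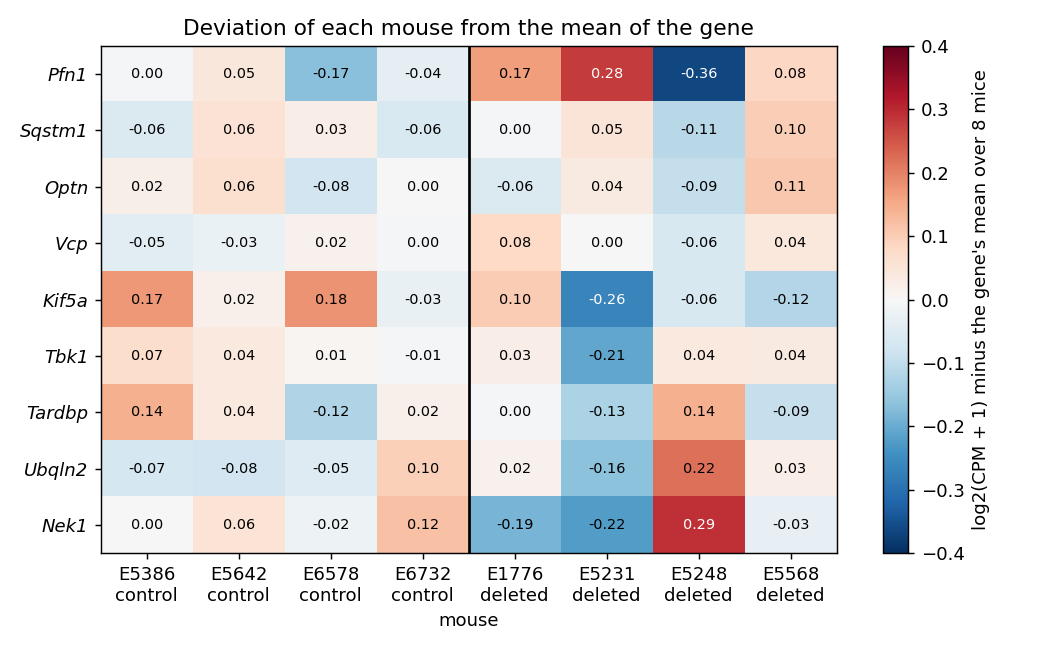
Log2(CPM + 1) of each gene in each mouse minus the mean of that gene over the 8 mice (colour scale from -0.4 to 0.4), Cre controls left and Ager-deleted mice right of the line. The columns of E5231 and E5248 hold the deepest colours, with Pfn1 at 0.28 and -0.36 and Nek1 at -0.22 and 0.29.

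RefSeq start sites on GRCm38.p6 were found for 6 of the 9 genes (Tardbp, Optn, Tbk1, Sqstm1, Vcp and Pfn1). The 250 bases before the start were searched on both strands for 5 motifs. The GC box, GGGCGG, was found in 5 of the 6, in all but Vcp, and in 32.7% of 32851 mouse promoters. The CCAAT box was found only in Vcp, with 4 matches, and in 33.8% of all promoters. Vcp also held 1 match to the TATA box, written TATAAA, which 12.4% of all promoters held. That match lay 244 bases before the start, outside the stretch printed below. The antioxidant response element, searched as TGACNNNGC, matched once in Vcp and in 10.2% of all promoters. The E-box, CACGTG, was in none of the 6 and in 6.02% of all. The promoters of Sqstm1 and Vcp are shown because they hold the contrast in motifs among the 6, GC boxes without a CCAAT box and the reverse. No value measured here bears on either promoter. The first gives the 100 bases before the start of Sqstm1 (chr11:50210821-50210920, minus strand) with GGGCGG or its complement CCGCCC in capitals, and the second the 200 bases before the start of Vcp (chr4:43000508-43000707, minus strand) with CCAAT or its complement ATTGG in capitals, both written 5′ to 3′.
Sqstm1: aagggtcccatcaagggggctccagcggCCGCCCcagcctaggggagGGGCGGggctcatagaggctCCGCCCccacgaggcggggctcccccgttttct
Vcp: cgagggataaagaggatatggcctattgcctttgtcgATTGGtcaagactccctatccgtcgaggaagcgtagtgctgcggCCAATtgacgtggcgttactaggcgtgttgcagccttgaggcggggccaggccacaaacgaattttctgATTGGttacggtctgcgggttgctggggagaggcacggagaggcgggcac
The Sqstm1 stretch holds 3 matches, the nearest 28 bases before the start, and the Vcp stretch holds 3 of its 4, the nearest 46 bases before the start. A match of letters is a description of the sequence and does not show that a factor binds there.

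The partners of these genes were followed in 9 lists written from general knowledge, 154 tested genes when each is counted once. None of the 154 passed the adjusted threshold in edgeR's exact or quasi-likelihood test, limma-voom or DESeq2. At an unadjusted p under 0.05 there were 5 in the exact test (3.25%, against 4.26% of all tested genes) and 8 in the quasi-likelihood test (5.19%, against 6.71%). The log2 fold changes ran from -0.29 to 0.25 with a median of 0.0096, and 9 of the 154 genes (5.84%, against 3.88% of all tested genes) had mice of the 2 genotypes that did not overlap.

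Among 36 autophagy receptors and core factors 0 passed in either direction and 22 had a log2 fold change above 0, with a median of 0.013. The receptors that work beside p62 and optineurin had log2 fold changes of 0.026 for Nbr1, -0.053 for Tax1bp1 and -0.022 for Calcoco1 (standard errors 0.053 to 0.067). The genotypes did not overlap for Bnip3l, a mitophagy receptor at 124 ± 3.23 CPM in Ager-deleted mice and 136 ± 8.86 CPM in controls, nor for Ulk2, an initiating kinase with a log2 fold change of -0.11 that was named after its values were seen. Rb1cc1, the scaffold of the ULK complex, was at -0.19 with a standard error of 0.094. All had an adjusted p of at least 0.742 in the quasi-likelihood test of edgeR.

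Of 14 partners of TBK1, 0 passed and the median log2 fold change was 0.017. Tank, an adaptor of TBK1, had 25.1, 28.1, 25.8 and 26.9 CPM after Ager deletion and 29.7, 29.5, 30.0 and 28.9 CPM in the controls, without overlap (log2 fold change -0.16, standard error 0.058, edgeR quasi-likelihood adjusted p = 0.742). Azi2, a second adaptor, was at -0.097 (standard error 0.069), Ikbke, the sister kinase of TBK1, at 0.15 (standard error 0.19) and Irf3, a transcription factor that TBK1 activates, at 0.13 (standard error 0.067).

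The 26 tested cofactors of VCP had a median of -0.042, with 18 below 0 and 0 called. The core adaptors Ufd1, Nploc4 and Nsfl1c were at -0.036, -0.00069 and 0.086, with standard errors of 0.053 to 0.060. The widest values in that list, 0.25 for Ubxn11 and -0.19 for Vcpip1, had standard errors of 0.12.

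Among 4 tested ubiquilins and profilins, the 2 ubiquilins differed in sign. Ubqln4 lay at 96.7, 90.5, 94.6 and 87.5 CPM with Ager deleted and 86.0, 79.7, 82.0 and 82.6 CPM without, so every Ager-deleted mouse was above every control. Its log2 fold change was 0.16, with a standard error of 0.054 and an edgeR adjusted p of 1 by the exact and 0.725 by the quasi-likelihood test. Ubqln1 was at -0.032 (standard error 0.060). The difference between these genes was not tested. Pfn2, the profilin of neurons, was at -0.13 (standard error 0.086), opposite in sign to Pfn1.

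For conventional kinesin, 0 of 9 genes passed, with a median of 0.068. Kif5b, the heavy chain found in all tissues, was the only heavy chain whose genotypes did not overlap. It had 484, 435, 430.1 and 420.2 CPM with Ager deleted and 527, 521, 537 and 513 CPM without. All 4 controls were above all 4 Ager-deleted mice (log2 fold change -0.25, 95% interval -0.40 to -0.096), and the unadjusted p of 0.00545 by the exact test became 0.610 in edgeR over all genes, 0.705 in the quasi-likelihood test and 0.0609 in DESeq2. Kif5c, the other neuronal heavy chain, was at -0.12 (standard error 0.089), so the 3 heavy chains shared a sign but none passed. Jakmip1, a kinesin-associated protein named after its values were seen, was the other gene without overlap, at 0.21.

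Actin partners of profilin numbered 13, of which 0 passed and the median was 0.0067. Diaph2, a formin, was at 19.3, 18.9, 21.0 and 18.2 CPM with Ager deleted and 21.3, 24.8, 23.8 and 24.6 CPM without, and the genotypes did not overlap (log2 fold change -0.29, adjusted p = 0.618 by edgeR's exact test). Evl, which carries profilin-actin to filament ends, went the other way without overlap, at 79.2 ± 1.98 and 70.7 ± 1.83 CPM (SD, n = 4, log2 fold change 0.16, exact adjusted p = 1 in edgeR). Diaph1, a formin known to bind the cytoplasmic tail of RAGE, was at 0.0067 (95% interval -0.12 to 0.13).

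In the last 3 lists 0 genes passed too. The 11 genes of the NEK list, Cfap410 included, had a median of 0.070. Nek7 was at -0.25 (standard error 0.11) and Nek10 at -0.29 (standard error 0.20). Nek10 had only 44 to 78 counts per mouse. The highest Nek7 value, 131 CPM, came from control E5642 and the lowest control value, 90.1 CPM, from E5386. Both of these controls carried muscle markers, and the part of muscle RNA in the Nek7 values was not tested. The 18 RNA-binding partners and targets of TDP-43 had a median of 0.016, with Ptbp2 at -0.17 and Unc13a, a transcript whose splicing TDP-43 guards in human neurons, at 0.16. Among 28 other genes of human ALS the median was 0.032, and only Chmp2b, a subunit of the ESCRT-III membrane-scission complex, had genotypes without overlap, at 41.4 to 46.7 CPM with Ager deleted and 46.9 to 52.8 CPM without (log2 fold change -0.16, quasi-likelihood adjusted p = 0.742).

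**Figure D5:**
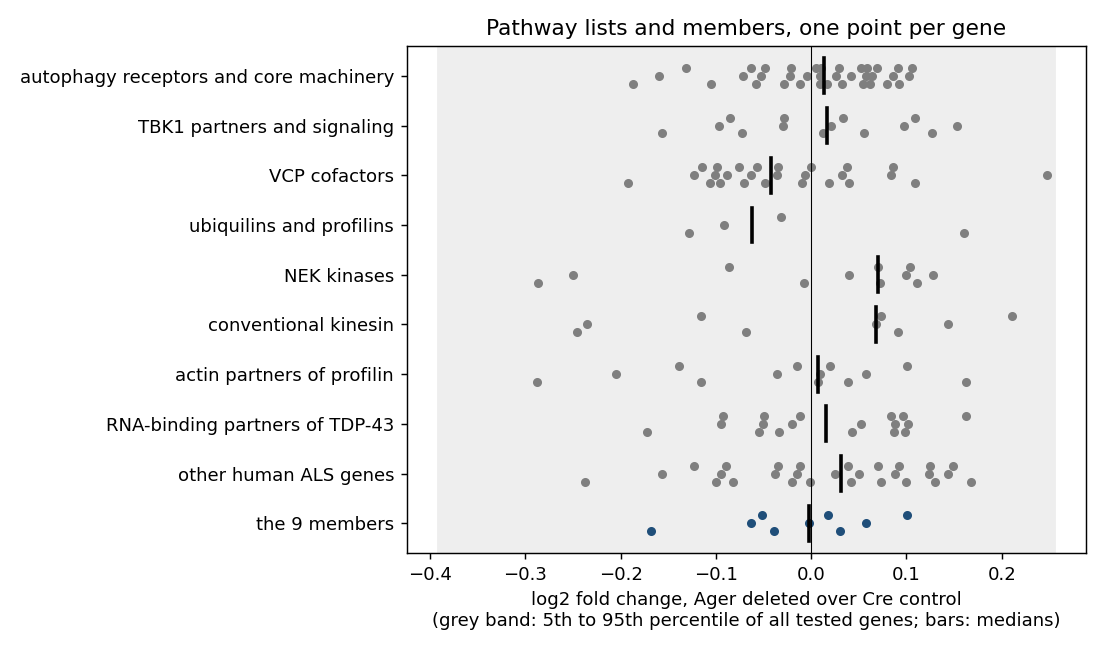
Log2 fold change (Ager deleted over Cre control) of each tested gene in the 9 lists (grey) and of the 9 ALS genes (blue), with the median of each as a black bar and the 5th to 95th percentile of all tested genes, -0.39 to 0.26, as a grey band. All points lie within the band, and the medians lie between -0.062 and 0.070.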

How the data were processed

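Lumbar cord RNA (poly(A)-selected, stranded kit) of 8 mice was sequenced in pairs. According to the submitters' notes and the study's methods, the authors trimmed reads (Trimmomatic 0.36), aligned them to mm10 (STAR 2.7.3a), and deposited raw counts per gene of GENCODE M25 (featureCounts, Subread 1.6.3); the strand setting is not given in the sources used here. They also deposited log2 TMM-normalized values, which recomputation from the counts matched within 4.78e-06 and which served only as that check. Every column matched a mouse by ID, no library was a duplicate of another (chi-square per degree of freedom at least 17.4 over 28 pairs), and no replicate number or litter is labelled.

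Genes were filtered (filterByExpr, minimum 10 counts), TMM-normalized and tested in edgeR 4.0.16 (R 4.3.3) by the exact test, which the study's methods name without its dispersion estimate (estimateDisp here, common and tagwise as an alternative), with the quasi-likelihood test beside it for standard errors and 95% intervals. The p-values were adjusted over all 19470 genes (Benjamini-Hochberg, 0.05). At this threshold the study reports 78 differentially expressed genes, the number that common and tagwise dispersions gave here. Whether they are the same genes was not checked. Values per mouse are TMM-normalized CPM, compared after log2(CPM + 1) by exact permutation of mice, unadjusted. Exon lengths, positions and overlaps are from GENCODE M21 on GRCm38, which predates the M25 release of the authors, and promoters from RefSeq GRCm38.p6. Intervals and floors cover counting error and the spread between these mice only. Alternatives were RLE, upper quartile and library-size scaling, other filters and pseudocounts, common and tagwise dispersions, limma-voom 3.58.1, DESeq2 1.42.0, a muscle covariate, and mice left out. The tests were checked on simulated data.

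Named were the 9 genes, Ager, preset paralogs and partners, the 2 list genes with the smallest exact p in each list, and the 3 genes nearest in profile to each member; others are marked as chosen after their values were seen. Members and lists were chosen with earlier results of these data known.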

Additional observations from a re-analysis of the deposited data

Results flagged for a closer look

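The lowest or highest mouse of a genotype was compared with the nearest other mouse for each of the 9 genes (Dixon's criterion for groups of 4). Of 18 groups tested, 2 passed, and chance gives about 1 in 20. Tbk1 in Ager-deleted mouse E5231 was low at 44.5 CPM, with the next mouse at 52.4 CPM. Ubqln2 in Cre control E6732 was high at 139 CPM, with the next control at 125.0 CPM. E6732 also carried the liver markers, and a link to its Ubqln2 level was not tested. Without E6732 the log2 fold change of Ubqln2 was 0.10, against 0.057 with all mice.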

How the results depend on the processing

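Calls among the 9 genes, and among the genes of the 9 lists, numbered 0 under each of 19 alternatives. Of 171 refitted log2 fold changes of the 9 genes 157 kept their sign, none passed the threshold, and the lowest adjusted p was 0.607 (Pfn1 without Ager-deleted mouse E5248). Of 108 differences per mouse 95 kept their sign and side. Without E5248, 2 passed an unadjusted permutation p of 0.05, Nek1 at -0.18 and Pfn1 at 0.22. The order of the remaining mice fixed that outcome, so it is no support for a difference.

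The signs that turned belonged to genes with log2 fold changes from -0.051 (Tbk1) to 0.057 (Ubqln2). Vcp, at 0.030, lay within that range and kept its sign throughout. Optn was at 0.0030 with upper quartile scaling, 0.023 with library size only (0.021 per mouse), 0.00039 without a filter, 0.047 with the muscle covariate and 0.033 (0.031 per mouse) without controls E5386 and E5642. Tardbp was at 0.037 with the muscle covariate and 0.026 (0.024 per mouse) without both controls, and Ubqln2 at -0.0021 per mouse without both. With 1 mouse left out, Optn ranged from -0.041 to 0.029 (-0.040 to 0.028 per mouse), Tbk1 from -0.072 to 0.0068 (-0.075 to 0.0069), Sqstm1 from -0.012 to 0.057 (-0.013 to 0.058) and Ubqln2 from -0.012 to 0.12 (-0.013 to 0.12). The mice whose removal turned the sign were E1776, E5248 or E5642 for Optn, E5231 for Tbk1, E5568 or E5386 for Sqstm1 and E5248 for Ubqln2.

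The count over all genes, 14, became 8 with a minimum of 1 CPM in 4 mice and 25 with DESeq2. On common and tagwise dispersions, the only setting then changed, it was 78. It was 1 with the quasi-likelihood test (also 1 when the muscle covariate was added to that test) and 1 with limma-voom. Without E5386 and E5642 it was 67, and with 1 mouse left out it was 3 to 98. Why the count moved so far was not tested. No paired analysis was possible because the labels carry mouse IDs and no replicate number shared between genotypes. Whole-cord RNA and 4 mice against 4 limit what could be seen: a change of these genes in microglia alone is diluted, and a difference inside the interval of a gene could not be told from 0.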
